A study of Mus musculus with 4 samples.

Results

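The lymphoid priming genes described here are Dntt, Il7r, Rag1, Satb1, Ighm, Il12a, Ccr9, Ikzf1, Tcf3 and Ebf1, which were taken by symbol from the gene list of the 5-FU library, and all 10 were found among its 32285 genes. They were measured by 10x Genomics single-cell RNA-seq in LSKs (lineage-negative, Sca-1-positive, c-Kit-positive bone marrow cells, the compartment of blood stem cells and multipotent progenitors) of C57BL/6 mice at homeostasis and 9 days after 100 mg/kg of 5-FU, an antimetabolite that kills dividing cells. In both conditions the wild-type cells came from Sin3B F/F mice and the knockout cells from Sin3B F/F mice that also carried Vav1-iCre, a Cre expressed throughout the hematopoietic system, so the floxed alleles are shared by both genotypes and deletion is not restricted to lymphoid cells. Cells of 2 mice per genotype were combined and both genotypes were run in 1 library per condition, in which they carried different antibody hashtags. The methods of the study state male mice for the homeostasis library and say which tag marks which genotype, and the mice's ages were not found in those sources. The data thus hold 4 pools, condition and library cannot be told apart, levels were therefore compared only within a library, and the spread between mice was not measured within a pool.

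Lymphoid priming is the low-level use of lymphoid genes by multipotent progenitors that can still form myeloid cells, and it is best known from the Flt3-positive fraction called MPP4 or lymphoid-primed multipotent progenitors. Transcription factors such as Ikaros and E2A act early, whereas the genes for antigen receptor assembly and for the IL-7 receptor come into full use once cells commit to the B or T lineage. The lineage antibodies by which cells were gated out in the sort included one against IL7Rα, the protein product of Il7r, so cells with that receptor at the surface were selected against in all 4 pools. The study also removed cells with RNA of any lineage marker of its gate, whereas the lineage filter used here leaves Il7r out because it is a member.

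Wild-type and knockout pools held 10339 and 4151 cells at homeostasis and 4899 and 3323 cells after 5-FU, with a median of 6621 to 10955 UMIs (unique molecular identifiers, the counted RNA molecules) per cell, and 76 cell barcodes occurred in both libraries. Levels are given as CPM, the UMIs of a gene per 1000000 UMIs of its pool. The targeted gene Sin3b stood at 81.7 CPM in the wild-type and 23.2 CPM in the knockout pool at homeostasis, and at 112.7 and 15.1 CPM in the 5-FU library. Sin3b was lower in the knockout pool of either library (log2 fold change -2.34, edgeR quasi-likelihood test over the 4 pools, Benjamini-Hochberg adjusted p = 0.0129). The summed level of the LT-HSC (long-term hematopoietic stem cell) markers was higher in the knockout pools, at 1172 and 1671 CPM in wild type and knockout at homeostasis and at 564 and 705 after 5-FU. That of the lymphoid-primed markers, from which the members were left out, was 1843 and 1652 CPM at homeostasis, where 1 of 11 markers was lower and 2 were higher by 0.5 on the log2 scale, and 1326 and 1120 CPM in the 5-FU library, where 5 were lower and 0 higher. The megakaryocyte-erythroid-primed sum was higher in the knockout pools, at 781 and 888 CPM at homeostasis and 1187 and 1507 CPM in the 5-FU library. Lower in both knockout pools were the neutrophil-primed sum (1480 and 1317 CPM at homeostasis, 2141 and 1893 in the 5-FU library), the T or NK sum (110 and 78.8, 178 and 112) and the mast or basophil sum (35.8 and 21.8, 42.1 and 25.8). Single markers did not all follow. At homeostasis, of those with at least 50 UMIs, 2 of 10 neutrophil-primed markers were lower by 0.5 and 2 higher. Likewise 1 of 5 T or NK markers was lower and 2 were higher, and 4 of 4 mast or basophil markers were lower. In the 5-FU library 3 of 10, 2 of 3 and 3 of 4 were lower and 0 higher.

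The promoters of the members whose ratio was lower by at least 0.5 on the log2 scale in both libraries are shown first, because these are the genes on which the genotype comparison turns. They are RefSeq sequences of the GRCm38.p6 assembly that run from 250 bases before to 50 bases after an annotated start. RefSeq entries matched 9 of the 10 members with 16 promoters in all, and Ighm had no entry. Capitals mark a match, on either strand, to the E-box letters CAGCTG or CACCTG, which the E2A protein encoded by Tcf3 can bind, to the Ikaros core TGGGAA, or to the Ebf1 letters CCCNNGGG. A 6-base site can match only 1 of the 2 E-box forms.
Dntt, chr19:41029025-41029324, plus strand: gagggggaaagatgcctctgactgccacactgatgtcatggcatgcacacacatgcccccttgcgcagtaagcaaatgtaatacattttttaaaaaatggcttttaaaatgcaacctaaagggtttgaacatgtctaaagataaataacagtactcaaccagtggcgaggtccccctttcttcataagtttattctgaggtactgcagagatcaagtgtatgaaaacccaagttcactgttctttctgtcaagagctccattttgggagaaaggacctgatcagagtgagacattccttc
Il12a, first start, chr3:68690394-68690693, plus strand: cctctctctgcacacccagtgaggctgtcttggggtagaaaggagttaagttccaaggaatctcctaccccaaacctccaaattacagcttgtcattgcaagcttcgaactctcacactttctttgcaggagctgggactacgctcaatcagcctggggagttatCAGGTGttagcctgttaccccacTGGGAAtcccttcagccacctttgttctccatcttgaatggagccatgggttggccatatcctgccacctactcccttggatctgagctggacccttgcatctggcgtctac
Il12a, second start, chr3:68691174-68691473, plus strand: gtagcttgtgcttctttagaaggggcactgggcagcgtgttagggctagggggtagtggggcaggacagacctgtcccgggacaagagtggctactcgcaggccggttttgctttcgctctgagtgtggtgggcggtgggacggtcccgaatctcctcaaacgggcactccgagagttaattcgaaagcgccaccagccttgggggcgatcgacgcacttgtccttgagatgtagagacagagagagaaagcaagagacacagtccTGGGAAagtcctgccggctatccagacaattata
Ccr9, chr9:123766961-123767260, plus strand: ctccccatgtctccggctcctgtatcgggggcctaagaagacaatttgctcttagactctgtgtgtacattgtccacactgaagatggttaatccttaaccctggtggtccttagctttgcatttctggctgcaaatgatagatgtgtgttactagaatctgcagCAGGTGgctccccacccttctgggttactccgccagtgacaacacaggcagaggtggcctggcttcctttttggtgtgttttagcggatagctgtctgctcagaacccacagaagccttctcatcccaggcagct
The Dntt window held none of these letters. The Ccr9 window and the first Il12a window each held CACCTG on the minus strand, printed as CAGGTG, from -85 to -80 relative to the start, and both Il12a windows held TGGGAA. Over the 16 member promoters, CAGCTG occurred in 2, CACCTG in 5, TGGGAA in 6 and CCCNNGGG in 1. Among all 32851 promoters of the table the shares were 16.3%, 20.2%, 25.6% and 13.7%, and a match describes the letters only.

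In GENCODE M21 on GRCm38, Dntt spans chr19:41029275-41059525, Il12a chr3:68690644-68698547 and Ccr9 chr9:123678439-123784330, all on the plus strand. Ighm spans chr12:113418558-113422730 on the minus strand. The Ccr9 model overlaps Gm17200 and Gm17020 on its own strand, and Slc6a20a and Lztfl1 on the opposite strand. Rag1 overlaps B230118H07Rik on its own strand, and Satb1 overlaps E430014B02Rik, C230085N15Rik and other models on its own strand. Reads in such stretches can be hard to assign. The other members lie at chr15:9505788-9530176 (Il7r, minus strand), chr2:101638282-101649501 (Rag1, minus), chr17:51736187-51833290 (Satb1, minus), chr11:11685003-11772926 (Ikzf1, plus), chr10:80409514-80433647 (Tcf3, minus) and chr11:44617317-45008091 (Ebf1, plus).

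Dntt, Ighm, Il12a and Ccr9 were lower in Sin3B knockout than in wild-type LSKs in both conditions, Ikzf1 and Tcf3 lay within 0.20 of 0 on the log2 scale, and Ebf1 differed in opposite directions in the 2 libraries. At homeostasis 4 members (Dntt, Ighm, Il12a and Ccr9) of the 9 with at least 50 UMIs were lower by 0.5 or more on the log2 scale, where 6.46% of 15565 genes were. Ebf1 was higher by that margin, where 7.05% of genes were. After 5-FU, 8 of 10 members were lower, all but Ikzf1 and Tcf3, against 6.64% of 13552 genes, and none was higher, against 4.8%. With Il7r among the lineage genes and 1 UMI enough to remove a cell, 4 were lower after 5-FU (Dntt, Satb1, Ighm and Ccr9), as Rag1, Il12a and Ebf1 were then at -0.43, -0.48 and -0.00052 and Il7r itself gives no value. The share of all genes past the limit was not computed for that setting. The median log2 ratio of the members was -0.48 at homeostasis and -0.98 after 5-FU, beside 0.01 and -0.02 over all genes. With 1 pool per genotype there is no test within a library, and the 95% intervals given with ratios cover counting error only. In such sums, fewer cells that express a gene and less RNA per cell cannot be told apart. The marker sums given above differed between genotypes, and their part in these ratios was not tested.

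**Figure D1:**
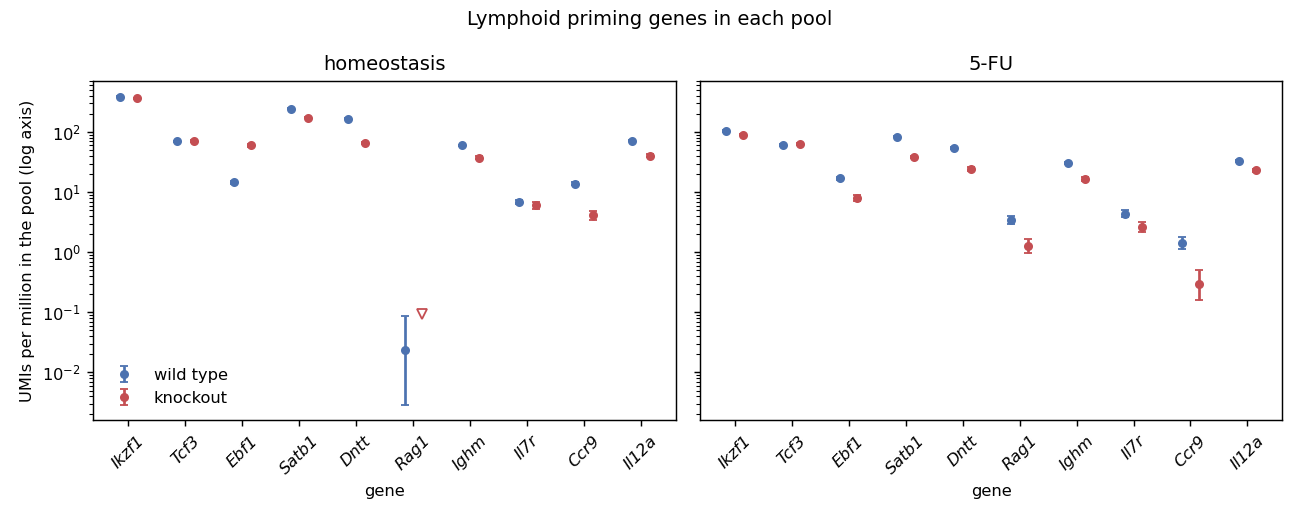
Level of each member in the wild-type (blue) and knockout (red) pool of each library, in CPM on a log axis, with exact 95% Poisson intervals as bars. The open triangle is the limit that a count of 0 allows (Rag1, knockout, homeostasis); Dntt, Satb1, Ighm, Il12a and Ccr9 were lower in the knockout pool of both libraries, and Ebf1 was higher in the knockout pool at homeostasis only.

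For comparison with the shares of cells with a UMI, megakaryocyte-erythroid-primed-like cells, a type not known for lymphoid gene use, were read at the same 4000 UMIs per cell. In that cluster at homeostasis a Dntt UMI was found in 3.00% of cells, a Satb1 UMI in 10.6%, an Ighm UMI in 2.70% and a Ccr9 UMI in 0.450%. The 5-FU library had 2 such clusters that differed from each other, with Dntt in 0.429% of cluster 1, led by Aqp1, Pf4 and Gata1, and in 6.44% of cluster 5, led by histone genes. The shares there were 1.72% and 10.8% for Satb1, 0.322% and 5.96% for Ighm and 0.215% and 0.644% for Ccr9, so after 5-FU they set no single floor. Cluster 5 had 7 of 11 megakaryocyte-erythroid-primed markers raised, but none was among its leading genes. In it 4 of 10 neutrophil-primed markers were raised too, so its shares may not describe megakaryocyte-erythroid-primed cells alone.

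Among the genes of antigen receptor assembly, Dntt encodes TdT, which adds nucleotides without a template to the joints of rearranging receptor genes. It stood at 167 CPM in the wild-type and 65.3 in the knockout pool at homeostasis, and at 54.1 and 24.3 after 5-FU. The knockout pool was below the wild-type pool of its own library in both cases. The log2 ratio was -1.36 (95% interval -1.42 to -1.29) at homeostasis, rank 147 from the lowest of 15565 genes, and -1.15 (-1.26 to -1.05) after 5-FU, rank 151 of 13552. After thinning every cell to 4000 UMIs, 23.0% of wild-type and 9.77% of knockout cells held a Dntt UMI at homeostasis, and 9.06% and 4.25% after 5-FU. Without thinning the shares were 30.6% and 14.5%, and 14.9% and 8.25%.

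Ighm, the constant region of the IgM heavy chain, was at 60.1 CPM in the wild-type and 37.8 in the knockout pool at homeostasis, and at 30.9 and 16.7 after 5-FU. Knockout was again the lower pool in both libraries, with log2 ratios of -0.67 (-0.76 to -0.58) and -0.89 (-1.02 to -0.76), which were -0.37 and -0.48, inside the limit of 0.5, with a mixture model of the hashtags. In cells thinned to 4000 UMIs, 16.4% and 9.72% held an Ighm UMI at homeostasis and 7.69% and 3.87% after 5-FU, or 24.8%, 14.8%, 12.3% and 6.92% without thinning. Rag1, the catalytic subunit of the recombinase, was near absent at homeostasis. There were 2 Rag1 UMIs in the wild-type pool and 0 in 4151 knockout cells, which by a floor of 3 counts allows a share of up to 0.0723% of cells with a UMI. After 5-FU it stood at 3.42 and 1.28 CPM, a log2 ratio of -1.41 (-1.88 to -0.98).

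Satb1, a chromatin organizer used in early lymphoid cells, was at 245 CPM in the wild-type and 175 in the knockout pool at homeostasis, and at 84.5 and 38.9 after 5-FU. Its log2 ratio was -0.48 (-0.53 to -0.44) at homeostasis, just inside the limit of 0.5, and -1.12 (-1.20 to -1.04) after 5-FU. Of cells thinned to 4000 UMIs, 48.4% and 34.1% held a Satb1 UMI at homeostasis and 24.1% and 11.9% after 5-FU, or 61.5%, 44.9%, 39.2% and 21.5% without thinning. The other early regulators were closer to equal. Ikzf1, which encodes Ikaros, was at 389 and 366 CPM at homeostasis and at 105 and 91.3 after 5-FU, with log2 ratios of -0.08 (-0.11 to -0.05) and -0.20 (-0.25 to -0.14). Tcf3, which encodes the E2A proteins, was at 70.2 in both pools at homeostasis and at 61.1 and 62.9 after 5-FU, and both intervals of its ratio included 0 (-0.07 to 0.07 and -0.03 to 0.12). At 4000 UMIs, 73.5% of wild-type and 70.1% of knockout cells held an Ikzf1 UMI at homeostasis, and 23.5% and 22.8% a Tcf3 UMI.

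Ccr9, the receptor for the thymic chemokine CCL25, had the lowest ratio of the members in both libraries. It stood at 13.8 CPM in the wild-type and 4.15 in the knockout pool at homeostasis, and at 1.42 (75 UMIs) and 0.296 (13 UMIs) after 5-FU. The log2 ratios were -1.73 (-2.0 to -1.48) and -2.21 (-3.23 to -1.40), the latter rank 20 from the lowest of 13552 genes. A Ccr9 UMI was found in 3.76% of wild-type but in 1.66% of knockout cells at homeostasis. The shares were 0.502% (0.315% to 0.759%) and 0.0634% (2 cells, 0.00768% to 0.229%) in the 5-FU library. There the knockout interval includes the 0.215% of cluster 1, and the wild-type interval includes the share given above for cluster 5. Without thinning they were 5.84% and 2.99% at homeostasis, then 0.776% and 0.331%. Il12a, the p35 chain of interleukin 12, was at 71.7 and 40.6 at homeostasis, and at 33.4 and 23.3 after 5-FU. Its ratios of -0.82 (-0.91 to -0.73) and -0.52 (-0.63 to -0.41) place the 5-FU value just past the limit. The share of thinned cells with an Il12a UMI after 5-FU was 12.1% and 8.40% (24.9% and 22.6% unthinned). In megakaryocyte-erythroid-primed-like cells of cluster 1 it was 12.6%, in the LT-HSC-like cluster 8 it was 4.39% and in lymphoid-primed-like cells 32.5%, so no cluster gives a clear floor for this gene. At homeostasis the shares were 21.2% and 13.7%, beside 11.5% in the megakaryocyte-erythroid-primed-like cluster. Il7r was at 6.81 and 6.03 CPM at homeostasis, a ratio whose interval included 0 (-0.42 to 0.06), and at 4.41 and 2.62 after 5-FU (log2 ratio -0.75, -1.08 to -0.42). An Il7r UMI was found in 1.70% and 1.10% of thinned homeostasis cells and in 0.958% and 0.349% of thinned 5-FU cells, beside 0% of megakaryocyte-erythroid-primed-like cells at homeostasis.

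**Figure D2:**
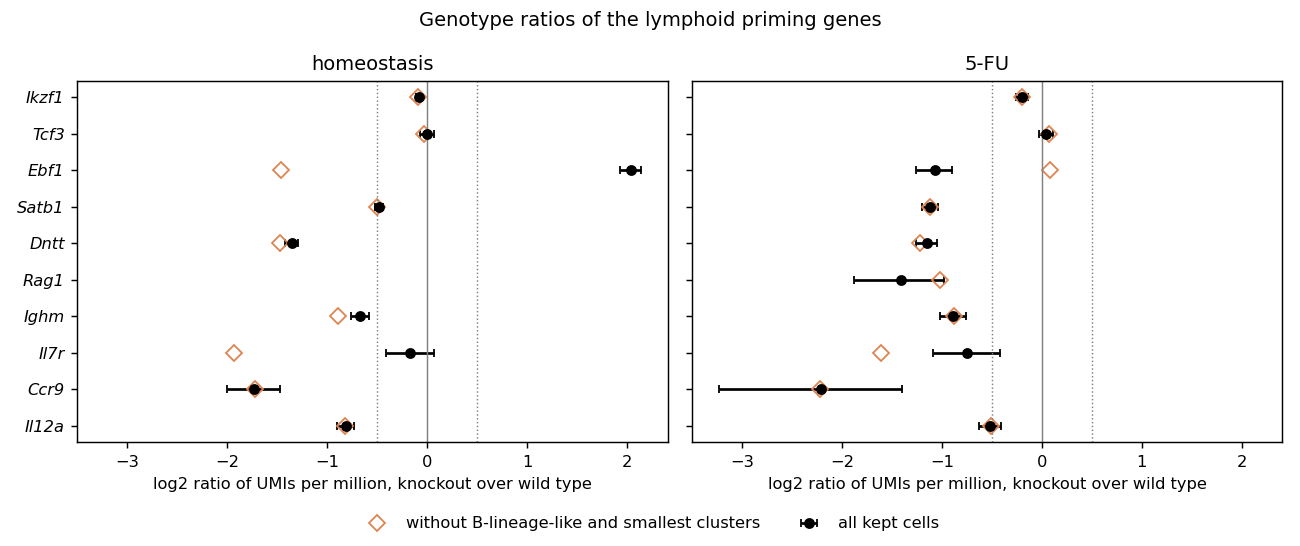
Log2 ratio of CPM, knockout over wild type, for each member in each library. Filled points with bars are all kept cells with 95% intervals for counting error, open diamonds are the ratio without the B-lineage-like and smallest clusters, and dotted lines mark 0.5 in either direction. Only Ebf1 and Il7r shift by more than 1 at homeostasis when those clusters are left out.

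Ebf1, the factor that specifies the B lineage, was at 14.7 CPM in the wild-type and 60.1 in the knockout pool at homeostasis, and at 17.0 and 8.09 after 5-FU. The knockout pool was thus the higher at homeostasis (log2 ratio 2.03, 1.93 to 2.14, rank 15515 of 15565) and the lower after 5-FU (-1.07, -1.26 to -0.90). The share of thinned cells with an Ebf1 UMI did not follow the level at homeostasis, with 1.61% in wild type and 1.33% in knockout, and single cells held up to 140 and 185 UMIs. A B-lineage-like cluster of 40 homeostasis cells, led by Vpreb3, Igll1 and Cd79a, held 675 Ebf1 UMIs in its 12 wild-type cells and 1865 in its 28 knockout cells, beside 1239 and 1942 in the whole pools. Summed B-lineage markers moved in the same directions, from 42.9 CPM in wild type to 79.0 in knockout at homeostasis and from 90.3 to 61.7 after 5-FU.

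When the B-lineage-like clusters and the other clusters of under 50 cells were left out, a choice made after they were seen, 89 cells were removed at homeostasis and 70 after 5-FU. These cells held 79.8% of all Ebf1 UMIs and 37.5% of all Il7r UMIs at homeostasis. After 5-FU they held 97.6% of Ebf1, 95.4% of Rag1, 64.7% of Il7r, 20.5% of Ighm and 14.1% of Dntt UMIs. Without them the Ebf1 ratio became -1.47 and 0.08, and that of Il7r -1.93 and -1.61. The ratio of Dntt was -1.47 and -1.22, that of Ighm -0.89 and -0.88 and that of Ccr9 -1.72 and -2.22, so all 3 were still lower in the knockout pool of both libraries. The median of the members that still had 50 UMIs was -0.89 and -1.0, beside 0.01 and -0.02 over all genes. In the 56160 homeostasis barcodes with 10 to 100 UMIs, too few to be called cells, Ebf1 was at 74.4 CPM, Ighm at 111 and Il7r at 14.9, all above the level of either pool. For Ebf1 the interval of the knockout pool (57.5 to 62.8) overlapped that of these barcodes (61.4 to 89.3). Dntt was at 57.6 there (46.2 to 70.9), Il12a at 40.1 (30.8 to 51.4) and Ccr9 at 4.53 (1.82 to 9.33), intervals that include the 65.3, 40.6 and 4.15 of the knockout pool. The part of these barcodes' RNA in the ratios was not tested.

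The conditions were used as blocks to test the genotype difference over the 4 pools, which leaves 1 residual degree of freedom. In edgeR's quasi-likelihood test with Benjamini-Hochberg adjustment over 17264 genes, 4 of 10 members were called lower in knockout cells, where 0.602% of genes were, and 0 were called higher, where 0.684% were. Dntt fell by 1.25 on the log2 scale (SE 0.0922, edgeR adjusted p = 0.00981), Ccr9 by 1.88 (SE 0.199, adjusted p = 0.0171), Ighm by 0.77 (SE 0.0921, adjusted p = 0.0223) and Il12a by 0.66 (SE 0.105, adjusted p = 0.0450), each in both libraries. Satb1, at -0.78 (SE 0.141), did not pass with an edgeR adjusted p of 0.0646, and Rag1, at -1.42 (SE 0.359), had an adjusted p of 0.149. The fold changes of Il7r (-0.44), Ikzf1 (-0.13), Tcf3 (0.03) and Ebf1 (0.59) had edgeR adjusted p-values of 0.378 to 0.924. Satb1 was called under 4 of 5 alternatives, by DESeq2 (adjusted p = 0.000974) and by edgeR without a filter on low counts (adjusted p = 0.00146), with library size scaling (adjusted p = 0.00997) and with the rule that 1 tag makes up 80% of hashtag UMIs (adjusted p = 0.0464). It was not called with a mixture model of the hashtags (edgeR adjusted p = 0.129), and neither were Ighm and Il12a (edgeR adjusted p = 0.0768 and 0.0559).

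To describe the cells that use the members, LSKs were clustered within each library with the members left out of the clustering, and clusters were named from markers that exclude the members. A lymphoid-primed-like cluster was found in both libraries, with 8 of 11 lymphoid-primed markers raised at homeostasis (1145 cells, led by Gria2 and Cmah) and 7 of 11 after 5-FU (330 cells, led by Klrd1, Clec2i, Clec12a, Cmah, Mpeg1 and Irf8). In the 5-FU cluster 5 of 10 neutrophil-primed markers were also raised, compared with 1 of 10 at homeostasis, and the myeloid genes Cd33 and Ncf1 were among its leading genes. Among clusters of at least 50 cells it held the highest level of Dntt, Il7r, Satb1, Ighm, Il12a, Ccr9 and Ikzf1 in both libraries. In the homeostasis cluster Dntt was at 822 CPM (803 to 841), Satb1 at 652, Il12a at 271, Ighm at 244 and Ccr9 at 88.6, and 72.6% of its thinned cells held a Dntt UMI. The next clusters were well below, with Dntt at 203 (185 to 223) in cluster 7 and at 197 (184 to 210) in cluster 14, which do not differ beyond their intervals.

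At the low end at homeostasis, Dntt was at 8.32 (6.53 to 10.5) in the LT-HSC-like cluster 10, a cluster that also has the dendritic gene Clec9a among its leading genes, and at 9.15 (6.83 to 12.0) in the megakaryocyte-erythroid-primed-like cluster, intervals that overlap. A Dntt UMI was found in 3.00% of cells of either cluster at 4000 UMIs, an Ighm UMI in 2.61% and 2.70%, and an Il7r UMI in 0%. After 5-FU the order was the same at its ends, with Dntt at 421 (400 to 444) in the lymphoid-primed-like cluster, at 51.8 in the next and at 0.903 in the LT-HSC-like cluster 8. Among clusters of at least 50 cells, Ikzf1 had a shallower range, with 256 to 673 CPM over the homeostasis clusters and 73.8 to 174 CPM over those of the 5-FU library. Among the same clusters Tcf3 was nearly level, with 52.7 to 83.7 CPM and 48.0 to 70.8 CPM, and its highest values were in clusters led by replication genes (homeostasis) and by histone genes (5-FU).

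**Figure D3:**
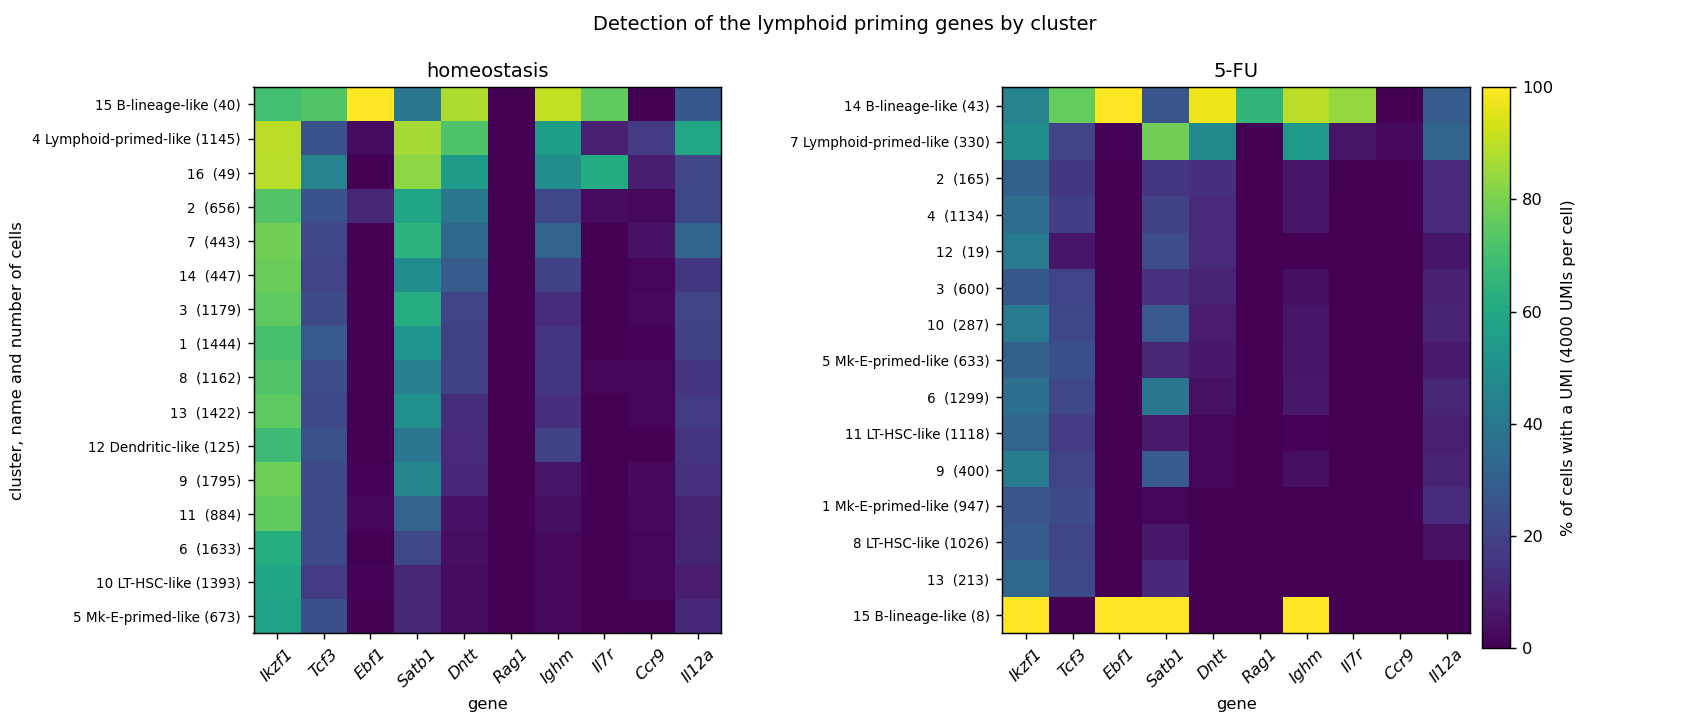
Share of cells, each thinned to 4000 UMIs, with a UMI of each member (columns) in each cluster (rows, with the number of kept cells in parentheses and a name where the markers gave one) of each library. Dntt, Satb1, Ighm and Il12a reach their highest shares among large clusters in the lymphoid-primed-like cluster, Ebf1 is found in all thinned cells of the B-lineage-like clusters, and Tcf3 varies little among large clusters.

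The B-lineage-like cells added a different set of members. In the homeostasis cluster of 40 cells Ebf1 reached 7043 CPM with a UMI in 100% of cells, Dntt 685, Il7r 424 and Tcf3 297, while Ccr9 and Rag1 had 0 UMIs. In the larger of 2 such clusters of the 5-FU library, with 43 cells, Ebf1 was at 2482, Dntt at 1144, Il7r at 468 and Rag1 at 470. Ccr9 again had 0 UMIs there. A cluster of 49 homeostasis cells led by the T-cell receptor genes Trbc1 and Tcrg-C1 with Tcf7 and Bcl11b had Il7r at 308, Ikzf1 at 887 and Satb1 at 550 CPM, but 0 Ebf1 UMIs. Of the lymphoid-primed-like cells at homeostasis 9.27% held an Il7r UMI, compared with 75.8% of the B-lineage-like cells.

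Within the lymphoid-primed-like class, Ccr9 was the only member called between genotypes. At homeostasis (1074 wild-type and 71 knockout cells) Ccr9 was at 92.4 CPM in wild type (772 UMIs) and 31.7 in knockout (18 UMIs), and after 5-FU (213 and 117 cells) at 16.8 (34 UMIs) and 1.47 (2 UMIs). The log2 ratios were -1.51 (-2.31 to -0.88) and -3.21 (-6.61 to -1.54). In edgeR's test over the 4 pools of this class, Ccr9 fell by 1.88 on the log2 scale (SE 0.323, adjusted p = 0.00134) and was the only member called lower of 9 tested, where 0.336% of 10421 genes were. None was called higher, where 0.288% of genes were, and only Ccr9 had an unadjusted p under 0.05 in either tool. With the rule that 1 tag makes up 80% of hashtag UMIs, 3 of 8 members had an unadjusted edgeR p under 0.05, beside 229 genes lower and 135 higher of 9895. DESeq2 called no member in this class (adjusted p of Ccr9 1.0, unadjusted p = 0.00272 for a model over all genes), with 3 genes called in all. With no test, the fold change of Ccr9 was -3.40 or -3.46 without either homeostasis pool, where it rests on 2 knockout UMIs, and -1.50 without either 5-FU pool.

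No other member was called in this class, and the signs of several ratios differed between the libraries and between ways of building the clusters. Dntt was at 799 in wild type and 1156 in knockout at homeostasis (log2 ratio 0.53, 0.41 to 0.65) but at 494 and 312 after 5-FU (-0.66, -0.83 to -0.50), and its edgeR fold change was -0.01 (SE 0.157, adjusted p = 0.994). Ighm had ratios of 0.52 and -0.12 and an edgeR fold change of 0.22 (SE 0.145, adjusted p = 0.716). Satb1 had ratios of 0.26 and -0.21, with an edgeR fold change of 0.05 (SE 0.123, adjusted p = 0.95). Il7r had 0.70 (33 knockout UMIs) and -1.59 (17 knockout UMIs). A p-value that misses the threshold does not show that these levels were equal, and the class at homeostasis rests on 71 knockout cells.

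**Figure D4:**
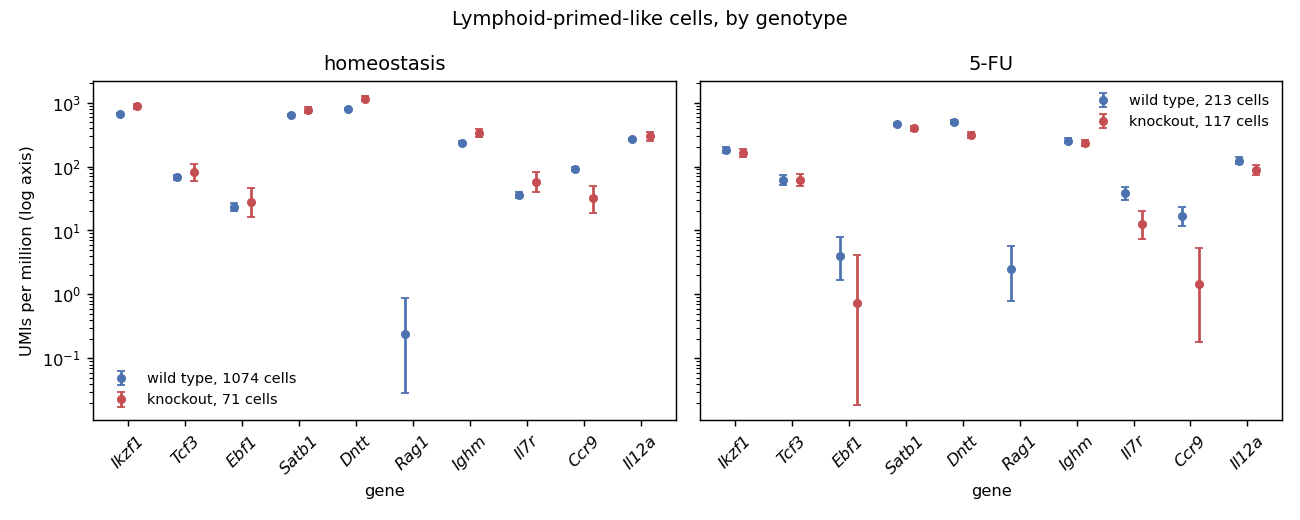
Level of each member in wild-type (blue) and knockout (red) lymphoid-primed-like cells of each library, in CPM on a log axis, with exact 95% Poisson intervals; pools with 0 UMIs are not drawn. Ccr9 is lower in knockout cells in both libraries, and Dntt is higher in knockout cells at homeostasis and lower after 5-FU.

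The clusters of both genotypes together split partly by genotype, so clusters were also built from wild-type cells alone, with knockout cells placed by their 20 nearest wild-type cells, a choice made after the first clusters were seen. In the lymphoid-primed-like cluster made that way at homeostasis (876 wild-type and 120 knockout cells) Ccr9 was at 117 and 22.6 (log2 ratio -2.34, -3.10 to -1.74), Dntt at 959 and 823 (-0.22) and Il12a at 313 and 239 (-0.39). After 5-FU (71 and 13 cells) Ccr9 had 30 wild-type UMIs and 0 knockout UMIs, while Dntt was at 1045 and 1118 (0.10). In that 5-FU cluster 7 of 10 B-lineage and 5 of 10 neutrophil-primed markers were also raised, with Ighd among its leading genes. In the homeostasis cluster 1 of 10 of either list was raised. In these clusters Il7r had ratios of -0.15 and 0.61, Satb1 0.09 and 0.20 and Ighm 0.05 and 0.28, all with intervals that included 0. Ratios were also averaged at equal makeup over the clusters with at least 10 cells of each genotype. The wild-type clusters thus lost the B-lineage-like 5-FU cluster (33 wild-type and 8 knockout cells). At homeostasis no wild-type cluster was named B-lineage-like. The unnamed cluster 8 there (594 wild-type and 131 knockout cells), led by Vpreb3, held 935 and 1868 Ebf1 UMIs. Its ratios were 3.09 for Ebf1, 2.33 for Il7r and 1.17 for Ighm, so makeup may not be equal within it. The Ccr9 ratio was -1.0 and -1.85 with the clusters of both genotypes and -1.44 and -1.53 with the wild-type clusters. That of Dntt was -0.06 and -0.74, or -0.49 and -0.39. The median over the members was -0.0047 at homeostasis and -0.57 after 5-FU with the first clusters, beside -0.02 and -0.03 over all genes, and 0.00 and -0.17 with the second. Behind that 0.00 lay values from -1.44 for Ccr9 to 2.66 for Ebf1, with Il7r at 0.50. Among the first clusters at homeostasis, clusters 3, 6, 7 and 9, with 1179, 1633, 443 and 1795 cells, held only 19, 56, 11 and 36 knockout cells. Clusters were weighted by all their cells, so part of the knockout average rests on few cells.

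Cells were also placed by the 5 gene signatures that the study used for LSK subsets, with the members removed from them. Such a class is a range of a score, and 20.5% of cells at homeostasis and 19.97% after 5-FU lay near a boundary. In the MPP4 class at homeostasis Dntt was at 415 CPM in wild type and 192 in knockout, Satb1 at 436 and 370, Ighm at 138 and 102 and Ccr9 at 60.0 and 9.89. After 5-FU the MPP4 values were 131 and 69.0 for Dntt, 165 and 129 for Satb1 and 67.1 and 55.7 for Ighm. In the LT-HSC class Dntt was at 14.2 and 9.56 at homeostasis and at 2.05 and 0.716 after 5-FU, with overlapping intervals in both libraries. Satb1 was lower in knockout there, at 62.8 and 39.7 at homeostasis and 19.78 and 10.03 after 5-FU. Its intervals were apart in both libraries. Ighm in that class was at 9.59 and 5.02 at homeostasis, with intervals apart. After 5-FU it was at 1.36 and 0.716, with overlapping intervals.

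The number of members per cell was counted next, with no share computed for members detected independently of each other. At 4000 UMIs per cell, 62.6% of wild-type cells (61.6% to 63.5%) and 47.5% of knockout cells (45.9% to 49.0%) held UMIs of 2 or more members at homeostasis, a difference of -15.1 percentage points. After 5-FU the shares were 27.8% (26.4% to 29.1%) and 18.5% (17.1% to 19.9%), a difference of -9.27 percentage points. The mean number of members per cell was 2.13 in wild type and 1.64 in knockout at homeostasis, and 1.10 and 0.837 in the 5-FU library. Ikzf1, the most often detected member in all 4 pools, enters these counts. The highest number in any cell was 9, in 1 cell of each library.

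Of the 45 pairs of members, 36 at homeostasis and 15 after 5-FU had a rarer member in at least 100 cells. Il7r and Ebf1 stood out at homeostasis, since 49 of 211 cells with Il7r also had Ebf1, 15.2 times the share in all cells. The B-lineage-like cells described above, all with an Ebf1 UMI and most with an Il7r UMI, are part of this overlap. No value is given without them. Il7r also went with Ccr9 (5.54 times), Ighm (4.77 times) and Dntt (4.14 times). Dntt was found in 53.6% of cells with Ighm and in 13.4% of cells without it at homeostasis, and in 46.4% and 4.49% after 5-FU. Satb1 was found in 60.8% of Ighm-positive cells after 5-FU, 3.20 times its share in all cells. Pairs with Tcf3 stayed near 1, from 0.96 with Ccr9 to 1.06 with Dntt at homeostasis, except with Ebf1 (1.38) and Il7r (1.44).

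**Figure D5:**
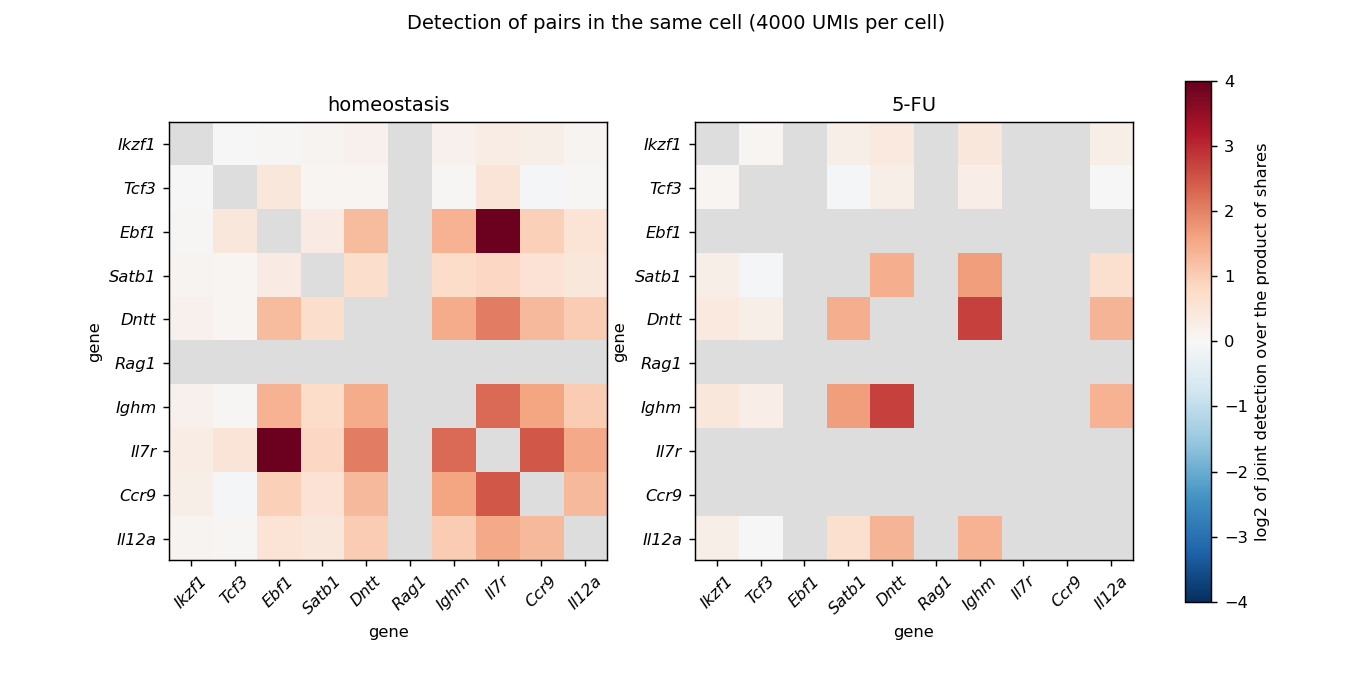
Detection of each pair of members in the same cell at 4000 UMIs per cell, as the log2 of the share of cells with both over the product of their shares, for both genotypes together. Grey marks a pair whose rarer member was found in under 100 cells, and the diagonal; the highest values are Il7r with Ebf1 at homeostasis and Dntt with Ighm after 5-FU.

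By genotype, Dntt was found in 57.1% of Ighm-positive wild-type cells (54.7% to 59.5%) and in 38.8% of Ighm-positive knockout cells (33.9% to 43.9%) at homeostasis, and in 47.2% (41.7% to 52.7%) and 44.3% (35.3% to 53.5%) after 5-FU. The intervals were apart at homeostasis and overlapped after 5-FU. Relative to the share of Dntt in all cells of the same pool, however, these homeostasis shares were 2.49 times in wild type and 3.97 times in knockout, the opposite order. Of Ccr9-positive cells at homeostasis, 51.5% of wild-type (46.3% to 56.7%) and 21.5% of knockout cells (12.3% to 33.5%, 65 cells) held a Dntt UMI, which is 2.24 and 2.20 times the share in all cells of the pool. These shares describe cells of 1 pool per genotype and carry no test.

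The members were set beside 45 further lymphoid genes, a list chosen with earlier results of these data known, several of which (Flt3, Notch1, Ltb, Btla and others) also served to name clusters. At homeostasis 4 of 42 with at least 50 UMIs were lower in knockout cells by 0.5 or more on the log2 scale and 12 were higher, with a median of 0.12, beside 6.46% lower and 7.05% higher and a median of 0.01 over all genes. After 5-FU, 17 of 37 were lower and 0 higher, with a median of -0.47, beside 6.64%, 4.8% and -0.02 over all genes. Without the B-lineage-like and smallest clusters the counts were 10 lower and 3 higher of 37 at homeostasis (median -0.21), and 11 lower and 1 higher of 30 after 5-FU (median -0.32). Over all genes the medians were then 0.01 and -0.02, and the shares past the limit were not computed. The surrogate light chain genes Vpreb3 and Igll1 went with Ebf1, with ratios of 2.15 and 2.02 at homeostasis and -1.25 and -1.13 after 5-FU. Lower in both libraries past the limit were Rag2, the partner of Rag1 (-0.71 and -0.85), the inhibitory receptor gene Btla (-0.78 and -0.75) and the transcription factor gene Runx3 (-0.57 and -0.68). Of the 43 list genes tested by edgeR over the 4 pools, 1 was called lower, Runx3 (-0.61, SE 0.0783, adjusted p = 0.0249), and 0 higher, where 0.602% and 0.684% of all genes were. In this test 11 list genes had an unadjusted p under 0.05, beside 1153 genes lower and 1222 higher of all 17264. In lymphoid-primed-like cells edgeR called 0 of 29, where 0.336% of all genes were called lower and 0.288% higher. There 3 list genes had an unadjusted p under 0.05, beside 466 genes lower and 472 higher of all 10421.

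Genes with a pattern across clusters most like that of each member were ranked by the mean of the Pearson correlations of log2(CPM + 1) over the 16 homeostasis and the 15 5-FU clusters, among 9914 genes. Dntt was most like Ldlrad4 (mean r 0.901), Satb1 most like Trf (0.901) and Arap2 (0.891), and Ikzf1 most like Pecam1 (0.900). Ighm was most like Cd52 (0.879), Ifi27l2a (0.876) and Irf8 (0.852). Ebf1 was most like Vpreb3 (0.95) and Cd79b (0.931), and Tcf3 also ranked Vpreb3 first (0.917). Ebf1 and Tcf3 were far higher in the B-lineage-like homeostasis cluster of 40 cells than in homeostasis clusters of at least 50 cells. No correlation is given without the B-lineage-like clusters. Clusters of a library share that library and differ in depth and number of cells, so these values are a description and carry no p.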

How the data were processed

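LSKs of both genotypes, marked by hashtag antibodies, were captured in 1 library per condition. The deposited files hold raw UMI counts per gene and barcode, which the authors made with Cell Ranger, version 4 at homeostasis and version 6.0.1 after 5-FU per the file headers. The submitters' processing notes also list mm9, with no role, and those sources do not give the alignment's build. The homeostasis matrix was read with the gene list of the 5-FU library after a check of row order, in which 159 of 159 windows of 200 genes correlated best with no shift. At homeostasis, barcodes with at least 2921 UMIs were taken as cells.

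Genotypes were called by HTODemux (Seurat 5.3.0, positive quantile 0.99, R 4.3.3). Cells called for both tags (6.02% and 3.40% of barcodes) or for neither tag (26.3% and 25.8%) were left out. Doublets of 1 genotype remain, since no doublet caller was used. The top and bottom 2% of UMIs, genes and mitochondrial share and any cell in which 8 lineage genes summed to at least 2 UMIs were removed. The study's exclusion of further cells by lineage-primed genes was not repeated. All 5 genes of the LSK gate list (Kit, Ly6a, Ptprc, Cd48, Cd34) were found in both libraries. UMIs were summed per pool and given as CPM with exact Poisson intervals. Log2 ratios, knockout against wild type, used a prior count of 0.5, exact conditional binomial intervals, genes with at least 50 UMIs and a limit of 0.5. Shares of cells used exact binomial (Clopper-Pearson) intervals after thinning to 4000 UMIs, which left out 4.69% to 10.5% of cells per pool. All intervals are at 95% and cover counting error only.

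Cells were clustered in each library (scanpy 1.11.5, leidenalg 0.10.2, Leiden resolution 1) without the members, cell cycle genes, Sin3b and sex genes, and the rule for naming clusters from fixed markers was settled after the clusters were seen. edgeR 4.0.16 (quasi-likelihood test, TMM scaling, genotype with condition as a covariate, Benjamini-Hochberg adjusted p under 0.05) compared the 4 pools. Counts were also simulated, with a fixed dispersion not estimated from these pools and the same genotype change in both conditions. For 17351 genes edgeR recovered 75 of 100 genes changed 2-fold and 93 of 100 changed 4-fold, and 63 and 92 in lymphoid-primed-like cells (10585 genes). It also called 13 unchanged genes, and 8 in lymphoid-primed-like cells. With these settings the counts do not measure recovery in the real pools. DESeq2 1.42.0, other scalings, hashtag rules (with mclust 6.1.1), filters, depths and clusterings were tried as alternatives. Nothing says that the pools are independent beyond their separate mice. The 1 residual degree of freedom is the disagreement of the genotype ratio between the libraries, which edgeR moderates by a spread taken from all genes. Its p-values rest on that disagreement and not on the spread between mice or like pools. The printed edgeR SE is the fold change divided by the root of the F statistic, so the same holds for it.

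All 10 members are named. Of the other 45 lymphoid genes, those past 0.5 in the same direction in both libraries are named, up to 12, and Vpreb3 and Igll1 were added after their values were seen. For likeness, up to 3 genes with at least 500 UMIs per library were ranked for each member. The members and gene lists were chosen with earlier results of these data known.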

Additional observations from a re-analysis of the deposited data

Results flagged for a closer look

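The Ebf1 ratio had opposite signs in the 2 libraries, with a log2 ratio of knockout over wild type of 2.03 at homeostasis and -1.07 after 5-FU. In lymphoid-primed-like cells the same held for Dntt (0.53 and -0.66), Il7r (0.70 and -1.59) and Satb1 (0.26 and -0.21). In the lymphoid-primed-like clusters built from wild-type cells the signs ran the other way for Dntt (-0.22 and 0.10) and Il7r (-0.15 and 0.61), and Satb1 had the same sign in both (0.09 and 0.20). With 1 pool per genotype and condition, the difference between conditions was not tested for any of these.

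Cells that HTODemux called for neither tag, which can still hold tag UMIs, enter no comparison. The 95% counting interval of some members' level in them lay wholly above those of both tagged pools. At homeostasis this was Ebf1, at 77.9 CPM. After 5-FU it was Il7r at 6.19 CPM, Satb1 at 105 CPM, Ighm at 41.3 CPM, Ikzf1 at 118 CPM and Ebf1 at 25.2 CPM. Other members whose level was above both pools without their intervals separating are not listed. These cells were not filtered for quality or lineage genes, unlike the tagged pools. With the mixture model of the tags, 9977 barcodes were called knockout and 13398 wild type at homeostasis, beside 4628 and 11579 by HTODemux. After 5-FU they were 6417 and 6170, beside 3727 and 5302. The main knockout pools thus leave out many barcodes that the other rule calls knockout.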

How the results depend on the processing

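Of the alternatives to the values that answer a comparison, 83 kept them within the limits set and 47 moved them. Values given below with Il7r among the lineage genes also had 1 lineage UMI enough to remove a cell, beside 2 in the main run. These changes cannot be told apart. Wild-type cells kept at homeostasis fell from 10339 to 8973 with them, and 258 of the 10339 held an Il7r UMI. The condition term of the edgeR fits already pairs the genotypes by library. No paired analysis was possible because, beyond that, the pools share no replicate numbers in the labels. Leaving out a pool leaves no residual degree of freedom, so it gives the ratio of the intact condition and no test, for example -1.13 to -1.37 for Dntt and -1.74 to -2.23 for Ccr9. Within a library no pool can be left out.

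The difference in cells with 2 or more members (-15.1 percentage points at homeostasis, -9.27 after 5-FU) was -11.1 at homeostasis under a rule that 1 tag makes up 80% of hashtag UMIs, -12.5 and -6.02 with a mixture model of the tags, -12.0 and -4.75 at 2000 UMIs per cell and -12.7 and -4.85 without thinning. The median log2 ratio of the members at homeostasis (-0.48) was -0.61 with a stricter HTODemux quantile, -0.27 with the mixture model, -0.44 without the removal of the top and bottom 2%, -0.77 with Il7r among the lineage genes, -0.43 with at least 5000 UMIs per cell, -0.57 as a mean of per-cell CPM, -0.58 with no minimum of UMIs and -0.89 without the B-lineage-like and smallest clusters. After 5-FU (-0.98) it was -0.77 with the 80% tag, -0.59 with the mixture model, -1.17 without the removal of the top and bottom 2%, -0.71 with Il7r among the lineage genes and 1 UMI enough, and -1.15 per cell.

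The within-cluster median at homeostasis (-0.0047) was -0.31 with the 80% tag, -0.11 with a stricter HTODemux quantile, -0.092 with the mixture model, -0.12 without lineage removal, 0.057 with at least 5000 UMIs, 0.19 and -0.31 at Leiden resolutions 0.5 and 2, and -0.17 with the signature classes. After 5-FU (-0.57) it was -0.38 with the 80% tag, -0.10 with a stricter HTODemux quantile and -0.17 with clusters of wild-type cells. The 4 members lower at homeostasis became 2 at a limit of 1 and 7 without the B-lineage-like and smallest clusters, and the 1 higher became 0 there and with Il7r among the lineage genes. The 8 lower after 5-FU became 4 with Il7r among the lineage genes and 1 UMI enough, and 5 at a limit of 1. The share of all genes past the limit was not computed under these settings, so these counts have no background beside them.

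Among ratios past 0.5, signs turned for Ebf1 at homeostasis (-0.72 with Il7r among the lineage genes and 1 UMI enough, -1.47 without the B-lineage-like and smallest clusters) and after 5-FU (0.079 without them). Within 5-FU clusters they turned for Ebf1 (1.45 with the 80% tag, 0.27 with a stricter HTODemux quantile, 1.66 with wild-type clusters), Ighm (0.11 with a stricter HTODemux quantile) and Rag1 (0.55 with wild-type clusters). The values with wild-type clusters leave out the B-lineage-like cluster, which had 8 knockout cells. It held 173 of 181 wild-type and 47 of 56 knockout Rag1 UMIs (ratio -0.79), and 873 of 901 and 292 of 355 Ebf1 UMIs (-0.50). With the mixture model the Ighm ratio fell inside 0.5 in both libraries (-0.37 and -0.48). Satb1 at homeostasis (-0.48) passed 0.5 with a stricter HTODemux quantile (-0.61), Il7r among the lineage genes (-0.53), per-cell CPM (-0.57), median-of-ratios scaling and without the B-lineage-like and smallest clusters (both -0.50). Of ratios nearer 0, Il7r at homeostasis ranged from -1.93 to 0.012 and Tcf3 from -0.036 to 0.034. In the lymphoid-primed-like clusters built from wild-type cells the signs of Dntt turned in both libraries (-0.22 and 0.10). In edgeR over the 4 pools the 4 members called became 2 with the mixture model and 5, Satb1 added, under each of the other 4 alternatives, and the 222 genes called became 552 with library size scaling, 669 without a filter and 142 with the mixture model. In lymphoid-primed-like cells the 1 member called became 0 with DESeq2, and the 65 genes called became 3 with DESeq2, 145 with library size scaling, 127 without a filter, 17 with the 80% tag and 32 with the mixture model. The cause of these shifts was not tested.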
